A study of Mus musculus with 12 samples.

Results

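The interferon response genes are 35 genes that cells switch on when they sense viral or misplaced nucleic acid or receive interferon. They were measured in mouse hearts, in the zone that borders a myocardial infarct and in sham-operated hearts. The members are a named list of known interferon-induced genes, matched by gene symbol. All 35 were found in the deposited table, among 20352 genes in all, each through rows (probesets) that the platform annotation assigns to that gene alone. The value of a gene on an array was the median over its rows, on a scale read as log2. Mice were of the strain C57BL/6J, 12 weeks of age, and no label names a genetic change or a drug in either group. The 6 infarcted samples came from the infarct border zone 2 weeks after surgery. The 6 sham samples came from the matching site 2 weeks after sham surgery, and the sources used here do not say how the infarct was made. The series text calls the 6 samples of a condition biological replicates, and no label gives a batch.

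Cells detect foreign or misplaced RNA and DNA with sensors such as RIG-I, MDA5 and cGAS, which pass the signal to IRF transcription factors and so to the interferon genes. Secreted type I interferon binds the receptor made of IFNAR1 and IFNAR2. The kinases JAK1 and TYK2 then activate STAT factors, which act with IRF9 on a short promoter element, the interferon-stimulated response element. Type II interferon (interferon gamma) uses another receptor and another element, the gamma-activated site. In the infarcted heart, phagocytes that take up dying cells are known to turn on type I interferon genes through cGAS, STING and IRF3.

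The 12 arrays had medians between 6.997 and 7.058 and correlated between 0.956 and 0.979 over all rows. Cardiomyocyte markers were bright, with a mean level over 12 markers of 13.23 to 13.29 in sham and 13.09 to 13.20 in infarcted arrays, where the highest value in the table is 14.37. All rows of 35 members, 346 in number, were used, with 2 to 27 rows per gene. In sham hearts 4 members lay under 5.26, the 30th percentile of all genes' mean signals, which was used to mark dim genes. These were Isg15, Mx1, Mx2 and Oas3, and what part of their signal is background was not measured here. The number of arrays, 6 per group, limits the precision of every value.

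In the infarcted border zone 5 of the 35 genes rose: Ifit2, Trim30a, Irf7, Ddx58 and Oasl2. None fell in limma, where 10 members had an unadjusted p under 0.05, 9 of them with a higher and 1 with a lower value in infarcted hearts. Over all 20352 genes, 6519 had an unadjusted p under 0.05 in limma. A call here means an adjusted p under 0.05 in limma, adjusted over all 20352 genes. The rises were between 1.28-fold and 1.44-fold. Over all genes, 10.1% were called higher and 10.2% lower, so the share of members called higher (14.3%) was near that of all genes. The median change over the members was 0.13, against -0.04 over all genes. A positive difference was seen in 25 of 35 members, against 42.0% of all genes, in 19 with each array centred on its median, against 33.9%, and in 20 after quantile normalization, against 36.6%. In tissue samples of this kind, fewer cells of a type and less RNA per cell cannot be told apart.

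The count of rises depended on single arrays. It was 9 without infarcted replicate 2, and 3 without sham replicate 6, infarcted replicate 5 or infarcted replicate 6. Over all genes, the shares called higher in these fits were 9.96%, 9.26%, 8.80% and 8.83%, in the same order. Ddx58, Ifit2 and Trim30a were called whichever of the 12 arrays was left out. Irf7 was not called without sham replicate 1, sham replicate 6 or infarcted replicate 3, 5 or 6, and Oasl2 was not called without sham replicate 2, 3 or 6 or infarcted replicate 4, 5 or 6. With the mean over rows in place of the median, 9 members were called higher and 1 lower. Those called higher beside the 5 were Ifih1, Irf8, Stat2 and Tap1, and Iigp1 was called lower. In that setting the shares of all genes also rose, to 13.4% higher and 14.5% lower. With dim rows left out 6 members were called higher, Stat2 beside the 5, and 12.5% of all genes.

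**Figure D1:**
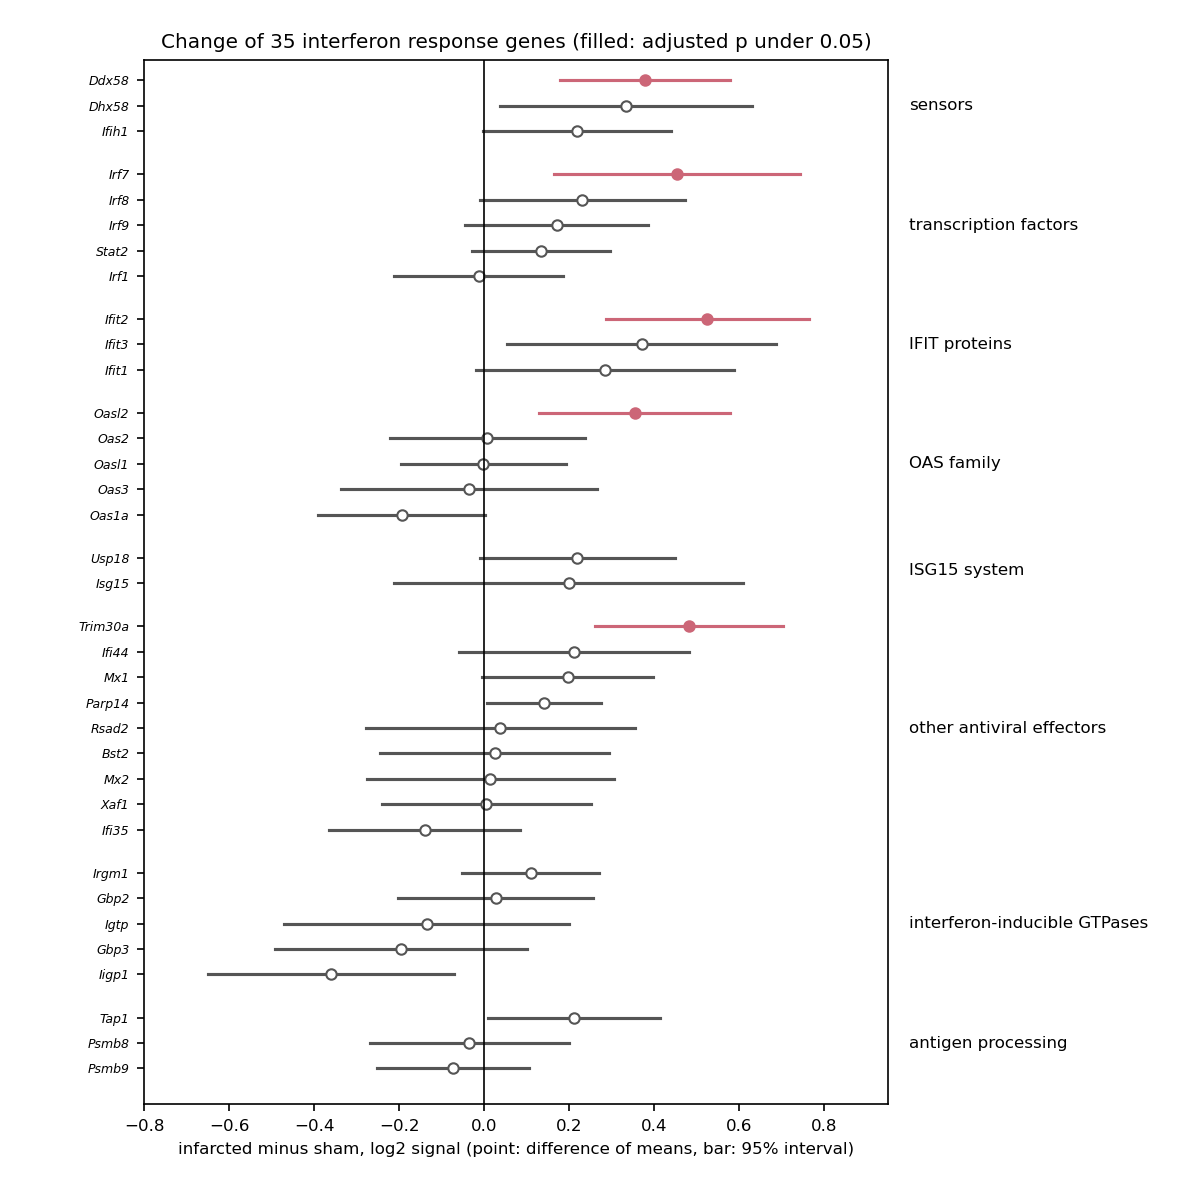
Change of each of the 35 members, infarcted minus sham on the log2 scale, as the difference of the means (point) with its 95% interval from limma (bar), grouped by role; filled points were called. The 5 called genes lie between 0.35 and 0.53, and the lowest point is Iigp1 at -0.36.

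The promoters carry the response element in many members, whether they were called or not. RefSeq promoter windows of 300 bases (250 before and 50 after the start of a transcript, build GRCm38.p6) were given for 28 of the 35 members. The core of the interferon-stimulated response element, which is GAAA, any 2 bases and GAAA again, was searched on both strands. It was found in 15 of these 28 genes (53.6%), against 3.99% of the 27025 genes in the promoter table. Of the called genes, Ddx58 and Trim30a held a match, and of the 23 not called genes with a window 13 did. The following stretches are shown because they set the 2 called genes that hold the element beside 6 members that hold it and were not called, among them the chromosome neighbours of Ifit2. Capitals mark each match, which begins with TTTC where it lies on the other strand:
Ddx58: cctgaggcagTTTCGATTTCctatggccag
Trim30a: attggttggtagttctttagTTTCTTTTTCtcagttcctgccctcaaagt
Ifit1: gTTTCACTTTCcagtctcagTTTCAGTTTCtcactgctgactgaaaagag
Ifit3: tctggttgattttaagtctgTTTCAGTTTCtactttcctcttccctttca
Isg15: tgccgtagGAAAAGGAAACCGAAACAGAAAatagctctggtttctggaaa
Oas1a: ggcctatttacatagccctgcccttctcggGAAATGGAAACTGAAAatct
Irgm1: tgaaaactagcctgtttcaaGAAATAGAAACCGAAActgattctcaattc
Gbp2: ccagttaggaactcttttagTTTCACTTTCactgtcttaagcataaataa

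Each stretch is written 5′ to 3′ along its gene. Those of Ddx58 (chr4:40239804-40239833), Trim30a (chr7:104465200-104465249), Isg15 (chr4:156200855-156200904), Oas1a (chr5:120907526-120907575) and Irgm1 (chr11:48871421-48871470) are on the minus strand. Those of Ifit1 (chr19:34640784-34640833), Ifit3 (chr19:34583387-34583436) and Gbp2 (chr3:142620584-142620633) are on the plus strand. The match of Ddx58 lies just past the transcript start, and that of Trim30a begins 36 bases before it. Isg15 holds 3 overlapping matches, the one nearest the start beginning 66 bases before it, and Ifit1 holds 2, of which the nearer begins 85 bases before the start. The letters of the gamma-activated site, which are TTC, any 3 bases and GAA, were found in 8 of the 28 genes (28.6%), against 9.55% of all genes in the table. They were in the windows of Ifit2 among the called genes, and of Bst2, Ifi35, Igtp, Irf1, Irf8, Oas1a and Psmb8. In Bst2 this match overlaps one of the response element. The windows of Irf7, Oasl2 and Ifit2 did not hold the core of the response element, which says only that these letters are not in those windows.

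Among the RNA sensors, Ddx58 rose. This gene encodes RIG-I, the cytosolic sensor of RNA with free triphosphate ends. Its log2 signal was 7.91 in the lowest, 8.10 in the median and 8.29 in the highest sham array, and 8.18, 8.57 and 8.64 in the infarcted arrays. Of the infarcted arrays 5 lay above every sham array, and infarcted replicate 2 lay within the sham range. The difference was 0.38 ± 0.09 (SE), or 1.30-fold (95% interval 1.13 to 1.49), with an adjusted p of 0.0102. Ifih1, which encodes the long-RNA sensor MDA5, differed by 0.22 (adjusted p = 0.162), and all 6 infarcted arrays were above its sham mean. Dhx58 encodes LGP2, the helicase that modulates both sensors. Its values ran from 5.59 to 6.10 in sham and from 5.53 to 6.50 in infarcted arrays, a difference of 0.33 that was not called (adjusted p = 0.108). Without infarcted replicate 2, which held its lowest value, Dhx58 was called (0.44, adjusted p = 0.0138).

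Of the transcription factors, Irf7 rose and the other 4 were not called. IRF7 is the factor that amplifies type I interferon production once interferon has been made. In sham arrays Irf7 ran from 6.69 over a median of 7.17 to 7.44, and in infarcted arrays from 7.27 over 7.62 to 7.96. All 6 infarcted arrays were above the sham mean and 4 above every sham array. The difference was 0.45 ± 0.14 (SE), or 1.37-fold (95% interval 1.12 to 1.67), with an adjusted p of 0.0280 that ranged from 0.0132 to 0.0645 over the fits with an array left out. Sham replicate 1 was its lowest array, and without it the difference was 0.36 (adjusted p = 0.0536). Irf9 and Stat2 encode the DNA-binding and STAT subunits of the complex that acts on the response element. They differed by 0.17 and 0.13 (adjusted p = 0.271 and 0.249). Irf8, a factor of myeloid cells, differed by 0.23 (adjusted p = 0.176). Irf1, the immediate factor of the interferon gamma response, differed by -0.01 (adjusted p = 0.942), with a 95% interval from -0.21 to 0.19.

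The IFIT genes encode proteins that bind foreign RNA and block its translation. Ifit2 had the largest change of all members. Its sham arrays ran from 6.52 over 6.85 to 7.15 and its infarcted arrays from 7.02 over 7.40 to 7.59, with 5 infarcted arrays above every sham array. It rose by 0.53 ± 0.11 (SE), or 1.44-fold (95% interval 1.22 to 1.70), with an adjusted p of 0.00393. Ifit3 and Ifit1, which lie beside it on the same chromosome, differed by 0.37 and 0.28 and were not called (adjusted p = 0.0956 and 0.185). Their infarcted arrays were more spread, with an SD of 0.36 and 0.37 against 0.18 and 0.12 in sham. Infarcted replicate 2 held the lowest infarcted value of all 3 genes, and its Ifit1 value of 6.89 was below every sham array. Without it Ifit1 and Ifit3 were called (adjusted p = 0.0145 and 0.0114).

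**Figure D2:**
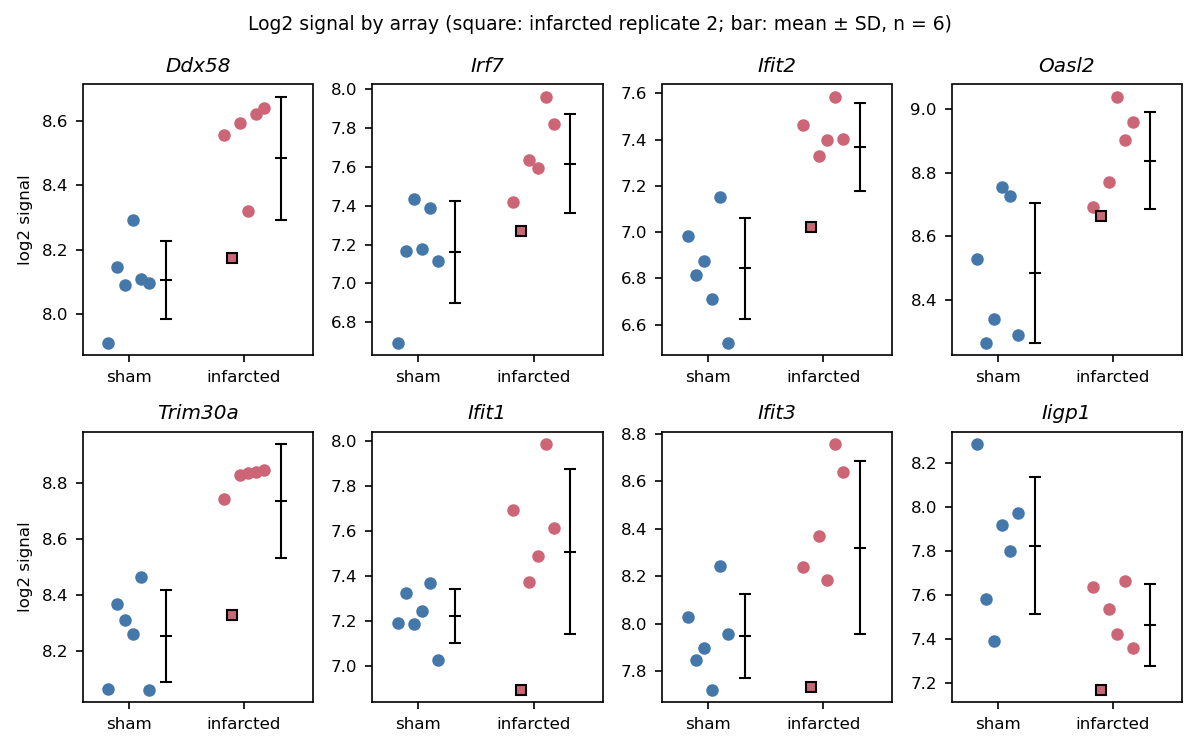
Log2 signal on each array for the 5 called members and for Ifit1, Ifit3 and Iigp1, with the mean and SD of each group beside the points (n = 6). Infarcted replicate 2, drawn as a square, held the lowest infarcted value in all 8 genes; for Ddx58, Ifit2, Trim30a and Ifit1 the other 5 infarcted arrays lay above every sham array.

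In the OAS family Oasl2 rose and the other 4 members were not called. The family includes enzymes that make the 2′-5′-linked oligoadenylate that activates the nuclease RNase L. OASL proteins are close relatives of the OAS proteins. Oasl2 ran from 8.26 over 8.43 to 8.76 in sham and from 8.66 over 8.84 to 9.04 in infarcted arrays, with 4 infarcted arrays above every sham array. The difference was 0.35 ± 0.10 (SE), or 1.28-fold (95% interval 1.09 to 1.49), with an adjusted p of 0.0272 that ranged from 0.0144 to 0.0609 over the fits with an array left out. Its neighbour Oasl1 differed by less than 0.01 in size (adjusted p = 0.991, 95% interval -0.20 to 0.19). Oas2 and Oas3 differed by 0.01 and -0.04 (adjusted p = 0.972 and 0.893). Oas1a, at -0.19 (adjusted p = 0.159), had all 6 infarcted arrays below the sham mean. Its 4 rows did not move alike: 3 had a positive difference (up to 0.17) and 1 a negative one (-0.37), and none was called. Near-identical gene copies lie beside Oas1a, and 8 further rows that the annotation shares between Oas1a and other genes were left out, so its value is uncertain.

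The ubiquitin-like protein ISG15 and USP18, the protease that removes it from other proteins and damps receptor signalling, form a pair. Usp18 ran from 7.07 over 7.45 to 7.64 in sham and from 7.43 over 7.59 to 7.85 in infarcted arrays. All 6 infarcted arrays were above its sham mean, but the groups overlapped and the difference of 0.22 was not called (adjusted p = 0.173). Isg15 was dim, with arrays from 3.74 to 4.57 in sham and from 4.11 to 5.17 in infarcted hearts, and differed by 0.20 (adjusted p = 0.525). Infarcted replicate 6 alone held the value of 5.17, and the next infarcted array was at 4.43.

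Of 9 other antiviral effectors Trim30a rose. It encodes a TRIM protein of the mouse that is induced by interferon and restrains Toll-like receptor signalling. Its sham arrays ran from 8.06 over 8.29 to 8.46 and its infarcted arrays from 8.33 over 8.83 to 8.85. Apart from infarcted replicate 2, at 8.33, the infarcted arrays lay close together between 8.74 and 8.85, above every sham array. It rose by 0.48 ± 0.10 (SE), or 1.40-fold (95% interval 1.20 to 1.63), with an adjusted p of 0.00415. Parp14, a mono-ADP-ribosyltransferase, had the smallest spread of any member in both groups (SD 0.07 and 0.08). It differed by 0.14, with 5 infarcted arrays above every sham array, and was not called (adjusted p = 0.133).

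The other 7 effectors were not called. Ifi44 differed by 0.21 (adjusted p = 0.277). Rsad2 (viperin, which makes a chain-terminating nucleotide) differed by 0.04, Bst2 (tetherin, which holds budding virus at the cell surface) by 0.02, the apoptosis factor Xaf1 by 0.01 and Ifi35 by -0.14 (adjusted p from 0.399 to 0.982). Mx1 and Mx2 encode dynamin-like GTPases that block incoming virus, and C57BL/6 mice are known to carry defective forms of both. Their sham means were 4.33 and 4.69, and they differed by 0.20 and 0.01 (adjusted p = 0.167 and 0.955). Mx1 was at 0.26 without sham replicate 3 (adjusted p = 0.0499) and at -0.15 with dim rows left out (adjusted p = 0.327).

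The interferon-inducible GTPases, which guard the cytosol against intracellular microbes and answer mainly to interferon gamma, gave no call. None of the 5 passed in limma, with 1 unadjusted p under 0.05 (Iigp1), and their median change was -0.14. Iigp1 ran from 7.39 over 7.86 to 8.28 in sham and from 7.17 over 7.48 to 7.66 in infarcted arrays. All 6 infarcted arrays were below its sham mean and 2 were below every sham array. The difference of -0.36 ± 0.13 (SE) missed the threshold (adjusted p = 0.0764). It passed with the mean over rows (-0.46, adjusted p = 0.000859), after centring of arrays (-0.40, adjusted p = 0.0456) and without sham replicate 3 (-0.45, adjusted p = 0.0236). Gbp3, Igtp, Gbp2 and Irgm1 differed by -0.19, -0.14, 0.03 and 0.11 (adjusted p from 0.349 to 0.893).

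The antigen processing members lie side by side on 1 chromosome. Psmb8 and Psmb9 encode interferon-induced catalytic subunits of the immunoproteasome and Tap1 encodes the peptide transporter for class I molecules. None of the 3 was called in limma, and Tap1 had the only unadjusted p under 0.05. Tap1 ran from 6.83 over 7.00 to 7.27 in sham and from 6.96 over 7.27 to 7.40 in infarcted arrays, with 3 infarcted arrays above every sham array. It differed by 0.21 (adjusted p = 0.136), and by 0.27 without infarcted replicate 2 (adjusted p = 0.0472). Psmb9, whose promoter window overlaps that of Tap1 on the other strand, differed by -0.07 (adjusted p = 0.605), and Psmb8 by -0.03 (adjusted p = 0.866).

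Single rows were called higher in all 5 called members and in 6 other genes. Of the 346 rows 23 were called higher (6.65%) and 2 lower (0.578%), where over all 241576 rows 6.39% were called higher and 4.3% lower. The 23 fell in 11 genes. Ddx58 held 8 of its 20 rows, Oasl2 4 of 9, Trim30a 2 of 7, and Ifit2 and Irf7 1 of 4 and 1 of 9. In Ifit2, Irf7, Oasl2 and Trim30a every row had a positive difference, and in Ddx58 19 of 20 did. A further 6 genes had rows called higher without a call for the gene: Irf8 with 2 of 11 rows, and Ifih1, Irf9, Psmb8, Stat2 and Usp18 with 1 each. Tap1 had no called row, although all of its 13 rows differed upward, from 0.01 to 0.41. Both rows called lower belonged to Iigp1, where all 5 rows were lower in infarcted hearts, from -0.22 to -0.69.

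**Figure D3:**
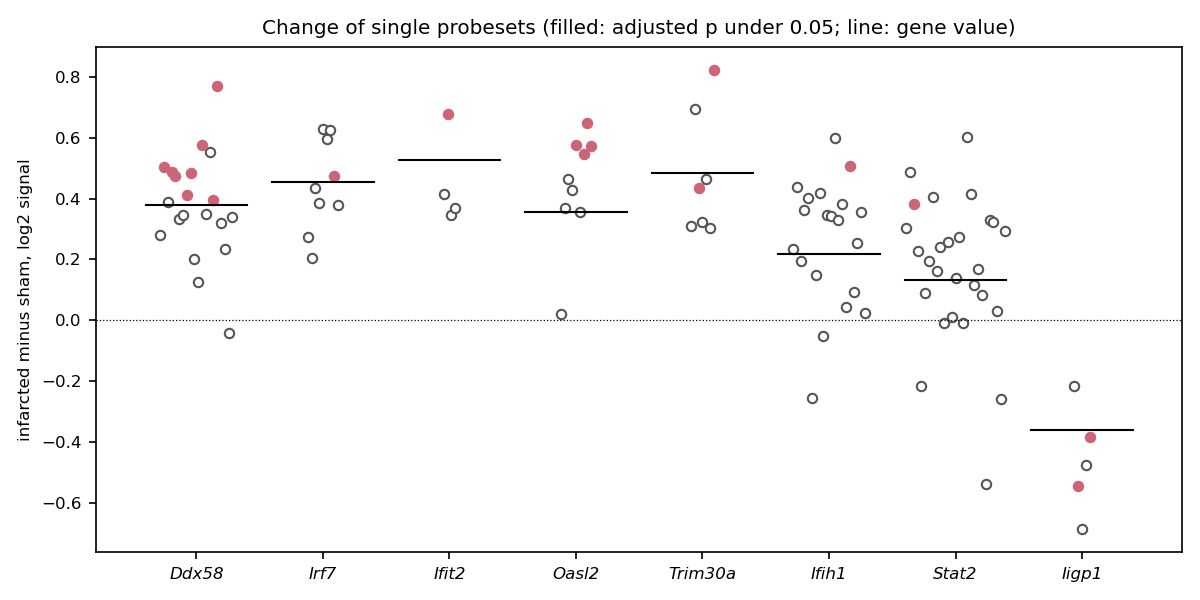
Change of single rows (probesets), infarcted minus sham on the log2 scale, for the 5 called members and for Ifih1, Stat2 and Iigp1; filled points were called over all 241576 rows, and the line is the change of the gene value. The 20 rows of Ddx58 hold 8 called rows, and the 5 rows of Iigp1 all lie below 0.

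No member separated the groups completely. The sham and infarcted arrays overlapped in all 35 genes, whereas they did not overlap in 11.3% of all genes. In 5 members (Ddx58, Ifit1, Ifit2, Trim30a and Parp14) 5 of the 6 infarcted arrays lay above every sham array. At least 5 did so in 14.3% of the members and in 9.47% of all genes. Without infarcted replicate 2 the groups did not overlap in 4 members, Ddx58, Ifit1, Ifit2 and Trim30a, against 14.1% of all genes. Without infarcted replicate 1 they did not overlap in Parp14, without sham replicate 4 in Ddx58 and without sham replicate 5 in Ifit2. The shares of all genes without overlap in these fits were 13.0%, 12.2% and 12.8%.

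Infarcted replicate 2 stood apart from the other infarcted arrays in these genes. It held the lowest infarcted value in 21 of 35 members, and in 18.5% of all genes, and it was below the infarcted mean in 30 of the 35. The median deviation of the members from their means over the 12 arrays was -0.12 on this array, against 0.09 to 0.12 on the other 5 infarcted arrays and -0.15 to 0.03 on the sham arrays. This was not particular to the members. The 37 further interferon-induced genes described below were also lowest on it among infarcted arrays (-0.10, against 0.10 to 0.21). So were the 14 class I presentation genes (-0.10, against -0.04 to 0.09). The 18 sensing and adaptor genes were not (0.09, against 0.05 to 0.20). Sham replicate 1 was below the sham mean in 27 of 35 members and lowest in 10. Over all genes, it was above the sham mean in 51.0% and lowest in 17.2%. Sham replicate 6 was lowest in 9 members and in 16.9% of all genes. The spread itself was like that of other genes. The median SD of the members was 0.195 in sham and 0.190 in infarcted arrays, against 0.166 and 0.170 over all genes, and it was larger in infarcted arrays for 18 members and in sham arrays for 17.

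**Figure D4:**
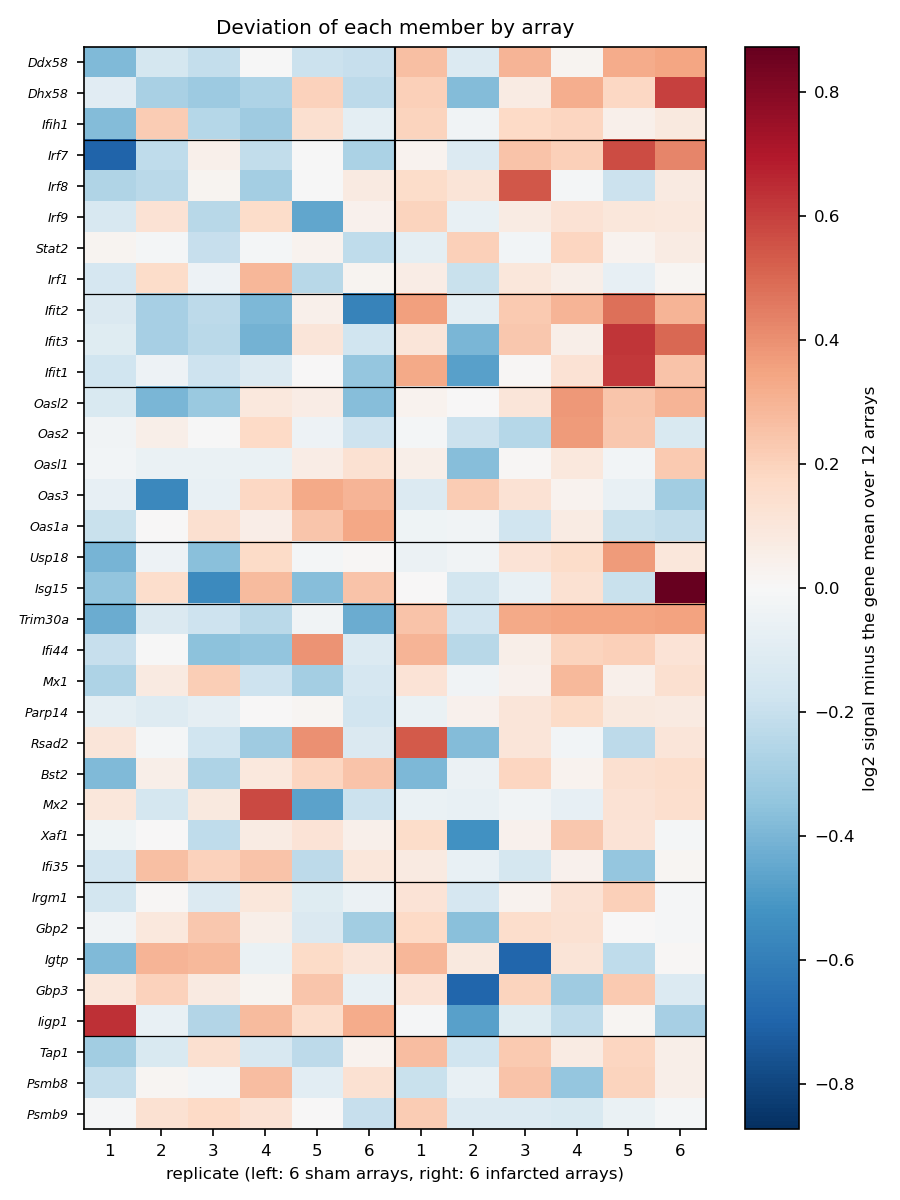
Log2 signal of each member on each array minus the gene's mean over the 12 arrays, with sham arrays on the left, infarcted arrays on the right and lines between role groups. Infarcted replicate 2 is blue in most rows and lay below every sham array in 9 members, among them Ifit1, Gbp3 and Xaf1.

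Markers of several cell types moved with the infarct. The counts of each marker list stand beside 10.1% of all genes called higher and 10.2% called lower. Fibroblast markers changed most, with 11 of 12 higher, none lower and a median change of 1.17. Postn, a matrix protein of activated fibroblasts, rose 8.45-fold. The mean level of the 12 was 9.08 to 9.39 in sham and 10.49 to 10.87 in infarcted arrays, and their median deviation on infarcted replicate 2 (0.56) lay within that of the other infarcted arrays (0.43 to 0.78). Of 9 smooth muscle and pericyte markers 6 rose and none fell, with a mean level of 8.47 to 8.85 in sham and 8.95 to 9.16 in infarcted arrays. Of 8 monocyte markers 3 rose, among them the chemokine receptor gene Ccr2 (2.95-fold), and none fell, with a mean level of 6.32 to 6.81 and 6.82 to 7.24. The monocyte markers Chil3 (-0.27), Nr4a1 (-0.31) and Ly6c2 (-0.001) had negative differences and were not called. The smooth muscle and monocyte lists were lowest among infarcted arrays on replicate 2, at 0.01 and 0.02. Of 12 macrophage markers 9 rose and none fell. The 3 not called were Mertk (0.18), Fcgr1 (0.26) and Cd163. Cd163 differed by -0.41, with all 6 infarcted arrays below its sham mean (adjusted p = 0.0987 in limma). The smallest p-values were those of Mpeg1 (a pore-forming protein of phagocytes, 3.16-fold), C1qb (1.68-fold) and Adgre1 (a surface receptor of macrophages, 1.88-fold). The mean level of the 12 macrophage markers was 7.79 to 8.09 in sham and 8.32 to 8.68 in infarcted arrays, without overlap, and none of them was dim in sham hearts. Their median deviation on infarcted replicate 2 was 0.11, against 0.20 to 0.46 on the other infarcted arrays. Endothelial markers, of which none of 12 was called in limma and 2 had an unadjusted p under 0.05, also were lowest among infarcted arrays on replicate 2 (-0.12, against 0.03 to 0.12). Of 5 markers of atrial muscle 2 rose and none fell, with a median change of 0.72, and the infarcted arrays were split. Their median deviation was 1.67, 1.05 and 0.73 on infarcted replicates 4, 5 and 6. On infarcted replicates 1, 2 and 3 it was -0.69, -0.34 and -0.67, within the sham range of -0.91 to 0.12. Of 6 adipocyte markers none was called, and their median deviation was 1.96 on infarcted replicate 5. The part of these cell types in the interferon genes was not tested. Of 6 measured markers of plasmacytoid dendritic cells, the cells known for abundant interferon production, only Tcf4 rose (0.28), a gene that other cells express too, and its call ended in 5 of the 12 leave-one-out fits. Siglech, the defining marker, was dim (5.23 in sham) and differed by 0.03. T and NK cells, a source of interferon gamma, had 11 measured markers with none called higher and Cd28 called lower (-0.81), and the median sham signal of these markers was 5.44.

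**Figure D5:**
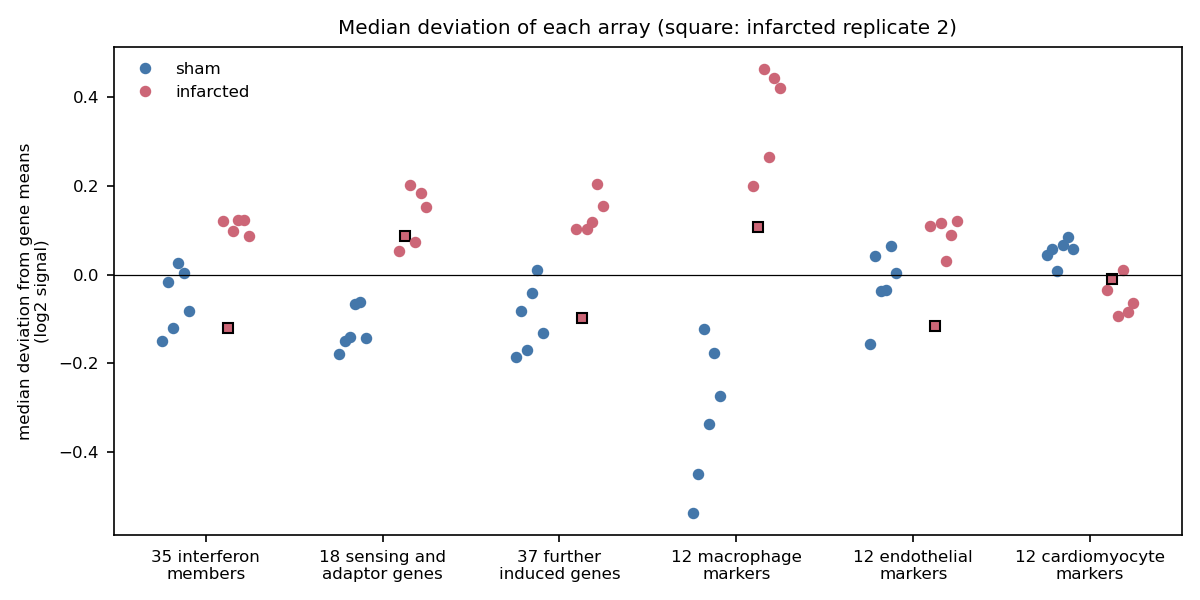
Median over the genes of a list of the deviation from each gene's mean over the 12 arrays, for each array; sham arrays are blue, infarcted arrays red, and infarcted replicate 2 is a square. The groups do not overlap for the 18 sensing and adaptor genes and the 12 macrophage markers. The square lies within the sham range for the 35 interferon members, the 37 further induced genes and the 12 endothelial markers.

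Around these 35 genes, 101 other genes of interferon signalling were measured, of 108 listed. Of these 26 rose and 5 fell, with a median change of 0.13, against -0.04 over all genes. These counts, and those of each list below, stand beside 10.1% of all genes called higher and 10.2% called lower. Among the 101 genes, the count of rises was 17 without infarcted replicate 5 or 6. Their count of falls was 3 without sham replicate 2, sham replicate 5 or infarcted replicate 6. Among 18 sensing and adaptor genes 7 rose and none fell. Sting1, the adaptor on the endoplasmic reticulum that answers to the second messenger of cGAS, ran from 7.64 over 7.87 to 8.23 in sham and from 8.71 over 8.84 to 9.07 in infarcted arrays. It rose 1.91-fold (95% interval 1.62 to 2.25, adjusted p = 4.38e-05), more than any of the 35 members, and its groups did not overlap. Unc93b1, the chaperone of nucleic-acid-sensing Toll-like receptors, rose 1.46-fold, and the kinase Ikbke 1.37-fold from a sham mean of 5.75. Tlr7 (0.57), Traf3 (0.32), Zbp1 (0.31) and Rnf135 (0.30) also rose, of which all but Zbp1 lost the call in 6 to 8 of the 12 leave-one-out fits. The DNA sensor gene Cgas was dim (4.20 in sham) and differed by 0.24 (adjusted p = 0.453). Tbk1 and Irf3, the kinase and factor downstream of STING, both differed by 0.09 (adjusted p = 0.559 and 0.605).

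Receptor genes changed unequally. Ifnar1 ran from 8.20 over 8.51 to 8.81 in sham and from 8.93 over 9.05 to 9.25 in infarcted arrays, and rose 1.45-fold (95% interval 1.23 to 1.72, adjusted p = 0.00395) without overlap of the groups. Its partner Ifnar2 differed by 0.05 (adjusted p = 0.647). Of the interferon gamma receptor, Ifngr1 rose 1.29-fold (adjusted p = 0.0212) and Ifngr2 differed by -0.05 (adjusted p = 0.562). The kinase gene Jak1 fell by 0.36 (adjusted p = 0.00218), and no infarcted array reached the lowest sham array, and Tyk2 and Jak2 differed by 0.27 and 0.15 (adjusted p = 0.101 and 0.340). Stat3 rose by 0.33 (adjusted p = 0.00741). Of 9 measured ligand genes 6 were dim in sham hearts. The type I gene Ifnb1 (3.63 in sham) and Ifng (4.94) differed by -0.04 and 0.14 (adjusted p = 0.834 and 0.506). The type III genes Ifnl2 and Ifnl3 were not dim (7.40 and 7.51) and differed by -0.12 and -0.13, and were not called. Among the ligand genes only Il6 rose, by 0.68 from a dim sham mean of 2.98. It is listed with the ligands but does not encode an interferon.

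Of 37 further interferon-induced genes 12 rose and none fell. With the smallest p were Ifitm2 (0.34), Ifi30 (0.61), Tor3a (0.39), Ifitm3 (0.26), Lgals9 (0.40) and Cxcl10 (0.42). IFITM proteins block the fusion of virus with membranes, IFI30 is a lysosomal reductase of antigen-presenting cells and CXCL10 attracts T cells. Ifitm2, Ifitm3 and Tor3a had all 6 infarcted arrays above every sham array. Among 13 negative regulators the phosphatase Ptpn6 (0.63) and Nlrc3 (0.78), a brake on STING signalling, rose, while Pias1 (-0.29) and Nlrx1 (-0.25) fell. In class I presentation 1 of 14 genes rose and 2 fell: B2m, the light chain, at 0.30, the proteasome activator Psme1 at -0.27 and the chaperone Canx at -0.22. The calls for B2m, Canx and Nlrx1 ended in 7 or 8 of the leave-one-out fits.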

How the data were processed

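Total RNA of 12 hearts was labelled with biotin by a whole-transcript kit, per the labels' protocols. Affymetrix Power Tools is the tool named by the submitters' processing notes; the sources used here do not give the summary method, normalization or genome build. The authors deposited 1 table of 241576 rows whose values were read as log2 from their range (1.52 to 14.37). Nearly equal medians mean that a change of all genes together would not be seen. The platform annotation gave 1 symbol for 212097 rows, several for 4475 and none for 25004. Symbols were updated through RefSeq synonyms. The test of infarcted against sham arrays was limma's (version 3.58.1, R 4.3.3; lmFit and eBayes, two-sided, Benjamini-Hochberg over 20352 genes or all rows, threshold 0.05), with no filter on dim signal. The script was tested on simulated data. No label ties replicate numbers together, so no block was used.

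Values by array were given for called members, members whose groups did not overlap and the member with the smallest p of each role; other pathway genes were named when called, up to 6 per list and direction by p, and Ifnar1, Ifngr1, Ifng, Ifnb1, Cgas and Sting1 always. Tlr7, Tbk1, Irf3, Ifnar2, Ifngr2, Tyk2, Jak2, Ifnl2, Ifnl3 and the cell type markers named were chosen after their values were seen. The members and lists were chosen with earlier results of these data known. Alternatives were another row summary, 2 normalizations, 2 filters, another variance model, a replicate block and arrays left out. Figures were drawn with matplotlib 3.10.9.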

Additional observations from a re-analysis of the deposited data

Results flagged for a closer look

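In each group of 6 arrays, the lowest or highest value was compared with the nearest other value as a share of the group's range, with a critical value of 0.625. Of 70 member groups 5 passed, where chance gives about 1 in 20, and all 5 were in infarcted arrays. Infarcted replicate 2 was far below the other infarcted arrays in Trim30a (8.33, next array 8.74), Xaf1 (6.92, next 7.43) and Gbp2 (7.44, next 7.79). The median deviation of all members was also far lower on this array than on the other 5 infarcted arrays (-0.12, next 0.09). Infarcted replicate 6 was far above the others in Isg15 (5.17, next 4.43), a dim gene, and infarcted replicate 1 in Psmb9 (8.03, next 7.80).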

How the results depend on the processing

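With arrays centred on their medians the members called were 5 higher and 1 lower, and 4 rows were called lower. With the mean over rows 9 members were higher and 1 lower, and the groups did not overlap in 1 member. Over all genes, 8.59% were called higher and 14.5% lower with arrays centred. With the mean over rows 13.4% were called higher and 14.5% lower, and 15.8% did not overlap. Without infarcted replicates 4 and 5, which carry the most atrial and adipocyte signal, 3 members (all among the 5) and 13 pathway genes were called higher. In that fit 9 rows were called higher and the groups did not overlap in 1 member. The share of all genes called higher also fell there, to 8.19%, and 14.3% did not overlap. With a replicate block the calls were 6 members higher, 3 pathway genes lower and 15 rows higher. Of all genes, 9.56% were called higher and 9.12% lower with the block. Same-numbered arrays did not deviate together (correlations of -0.05 to 0.10). Paired arrays need not deviate together, so this check cannot show whether the numbers pair them. Over the 12 fits with an array left out, the counts were 3 to 9 members higher and 0 to 1 lower, 0 to 4 without overlap, 17 to 30 pathway genes higher and 3 to 7 lower, and 15 to 32 rows higher and 1 to 4 lower. Of all genes, 8.80% to 9.96% were called higher in these fits, 8.18% to 10.4% were called lower and 11.9% to 14.1% did not overlap. The cause of these differences was not tested. No value of a called member changed sign, and 12 members without a call did in at least 1 setting. The 5 called members kept their call under both normalizations, both filters, the mean over rows, the other variance model and the block. Dim signal limits Isg15, Mx1, Mx2, Oas3, Ifnb1, Ifng, Il6 and Cgas.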
